A study of Mus musculus with 10 samples.

Results

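The 10 NRF2 antioxidant response genes examined here were Nfe2l2, Nqo1, Gclc, Gclm, Hmox1, Txnrd1, Srxn1, Slc7a11, G6pdx and Sqstm1. They were chosen by symbol from 55421 genes in the count table. All 10 were among the 22449 genes whose counts summed to at least 10, and so all were tested. RNA with poly(A) tails was sequenced from the whole liver of 10 male mice. H3.3 is the histone H3 variant encoded by H3f3a and H3f3b.

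The H3.3 KO group held 4 mice with both genes floxed (H3f3afl/fl and H3f3bfl/fl) that were given AAV8 Tbg-Cre. In the WT Cre controls 3 wild-type mice were given the same virus. In the MCS controls 3 floxed mice were given AAV8 Tbg-MCS, which lacks Cre. Injection was at 6 months of age, and livers were examined 3 weeks later. The Tbg promoter is active in hepatocytes, so that Cre is directed to these cells, whereas RNA came from every cell type of the organ. WT Cre and MCS livers differ in both virus and genotype, and these cannot be told apart. The study's text gives C57BL/6 as the strain of its HIRA floxed mice and names none for the H3f3a and H3f3b floxed mice. The genotype field reads HIRA fl/fl for the floxed mice used here, and the groups follow the titles. The titles give separate replicates but not litters or days, so that p-values measure the spread between these samples.

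H3f3a stood at 59.9 to 63.7 CPM (counts per 1000000, scaled by TMM, a correction for composition) in the 6 controls and at 16 to 19 CPM in the KO livers. H3f3b stood at 136.5 to 203.6 CPM in the controls and at 39.8 to 56.7 CPM in KO. Hira was at 5.48 to 8.71 CPM in the controls and at 6.26 to 6.68 CPM in KO. Libraries held 14998426 counts (KO 1) to 26096141 counts (MCS 1). All 9 hepatocyte markers found were above 0 in every liver. Their summed level was 111500 to 157400 CPM in the controls and 82520 to 97190 CPM in KO. Alb held 90590 of 121800 CPM in WT Cre 1 and 61390 of 82520 CPM in KO 4, so there the sum was mostly Alb. Against the 6 controls 7 of the 9 had an edgeR adjusted p under 0.05 for a lower level, as had 16.6% of all genes. None had one for a higher level. The other 2 were Cps1 (log2 fold change 0.22) and Hnf4a (-0.55). In whole liver, fewer cells of a type and less RNA per cell cannot be told apart. The count columns name a control only by a number from 1 to 6. Numbers 1 to 3 were taken as WT Cre and 4 to 6 as MCS, after the numbers of the libraries. All values for one kind of control rest on this match, and those for the 6 pooled controls do not.

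NRF2, the product of Nfe2l2, is a transcription factor that answers oxidants and electrophiles. KEAP1 holds it for degradation in resting cells. When KEAP1 is modified, NRF2 accumulates, pairs with a small MAF protein and binds antioxidant response elements near genes for glutathione synthesis, thioredoxin reduction, NADPH supply and detoxification. In the liver this system limits injury by drugs and other reactive compounds.

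The core of the antioxidant response element, TGACNNNGC, was searched on both strands from 250 bases before to 50 bases after the transcription start in RefSeq promoters (GRCm38.p6, the mm10 assembly). Entries were present for 8 of 10 members, and 5 of the 8 held a match, as did 14% of all symbols in the table. Nfe2l2, Gclm, Txnrd1, G6pdx and Srxn1 held it, while Nqo1, Slc7a11 and Sqstm1 did not within this window. Gclc and Hmox1 were without an entry. The stretches below show the matches in capitals, and Nqo1 is shown because its difference between controls was the largest among the members that passed. Each reads 5′ to 3′ on the strand of the gene.
Nfe2l2 (chr2:75704664-75704913, minus strand, upstream of the start): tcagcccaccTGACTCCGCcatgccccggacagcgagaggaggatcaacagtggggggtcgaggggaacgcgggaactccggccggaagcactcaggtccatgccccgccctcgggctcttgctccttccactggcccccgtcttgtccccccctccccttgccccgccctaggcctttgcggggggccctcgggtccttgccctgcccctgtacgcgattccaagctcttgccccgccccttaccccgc
Nqo1 (chr8:107403207-107403455, minus strand, upstream of the start): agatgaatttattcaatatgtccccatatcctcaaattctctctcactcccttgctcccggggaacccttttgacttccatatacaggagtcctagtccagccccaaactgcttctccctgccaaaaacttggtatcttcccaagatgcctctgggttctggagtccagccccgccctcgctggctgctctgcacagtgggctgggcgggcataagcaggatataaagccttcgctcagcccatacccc
Gclm (chr3:122245307-122245556, plus strand, upstream of the start): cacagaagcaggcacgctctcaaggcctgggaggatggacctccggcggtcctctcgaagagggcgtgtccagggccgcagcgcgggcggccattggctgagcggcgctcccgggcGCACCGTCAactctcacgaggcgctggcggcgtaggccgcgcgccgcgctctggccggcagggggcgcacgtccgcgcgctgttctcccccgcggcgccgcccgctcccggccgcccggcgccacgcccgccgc
G6pdx (chrX:74428918-74428947, minus strand, around the match): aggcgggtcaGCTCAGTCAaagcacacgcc
Srxn1 (chr2:152105542-152105571, plus strand, around the match): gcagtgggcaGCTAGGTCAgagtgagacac
Txnrd1 (chr10:82859104-82859133, plus strand, around the match in one of its 3 promoter entries): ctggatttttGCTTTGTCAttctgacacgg

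Counted from the start, with the base before it at -1, the matches began at -240 in Nfe2l2, -134 in Gclm, -92 in Txnrd1, -57 in G6pdx and 29 in Srxn1. Only the match of Nfe2l2 reads TGACNNNGC on the strand of the gene, and the others read it on the opposite strand. In GENCODE M21 the Nfe2l2 stretch overlaps an exon of a non-coding transcript on the other strand (E030042O20Rik), and the G6pdx stretch lies in the first exon of a longer transcript. A match of letters is a description and shows no binding.

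Of the members, 7 of 10 were higher in all 3 WT Cre livers than in all 3 MCS livers (Nfe2l2, Nqo1, Gclc, Gclm, Srxn1, G6pdx and Sqstm1), against 11% of all genes tested, and 0 were lower in all 3, against 11.2%. Further, 6 of 10 were higher in all 4 KO livers than in all 3 MCS livers (Nfe2l2, Nqo1, Gclc, Srxn1, Slc7a11 and G6pdx), against 17.7% of all genes. No member was higher in all 4 KO livers than in all 6 controls, against 12.5% of all genes. Differences were tested with edgeR's quasi-likelihood F test (two-sided), p was adjusted by Benjamini-Hochberg over all 22449 genes, and a gene was called at an adjusted p under 0.05. WT Cre exceeded MCS in 2 of 10 members by this test, Nfe2l2 and Nqo1, where 0.441% of all genes were called higher.

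Against the 6 pooled controls 3 of 10 members were called higher in KO (Hmox1, Slc7a11 and G6pdx) and 0 lower, and the other 7 were not called. Of all genes, 19.7% were called higher and 16.6% lower. The same 3 members had a log2 fold change over 1, and 12.9% of all genes were called higher at that size. KO was higher than WT Cre for 2 of 10 members (Hmox1 and Slc7a11; 15.3% of all genes) and higher than MCS for 5 of 10 (Nfe2l2, Nqo1, Gclc, Slc7a11 and G6pdx; 17.3% of all genes). No member was called lower in any of these comparisons or in WT Cre against MCS by edgeR, DESeq2 or voom, and 0 had an unadjusted edgeR p under 0.05 in that direction. Of all genes, 13.1% were called lower in KO than in WT Cre, 14.8% lower in KO than in MCS and 0.486% lower in WT Cre than in MCS. Against the pooled controls 5 members had an unadjusted edgeR p under 0.05 for a higher level. The share of all genes at that threshold was not taken, so this count cannot be set against all genes. The median log2 fold change of the members was 0.61 against all controls, 0.16 against WT Cre and 1.02 against MCS, where the medians of all genes were -0.00299, 0.016 and 0.0062. These comparisons share the KO livers, and the separate controls are part of the pooled ones.

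**Figure D1:**
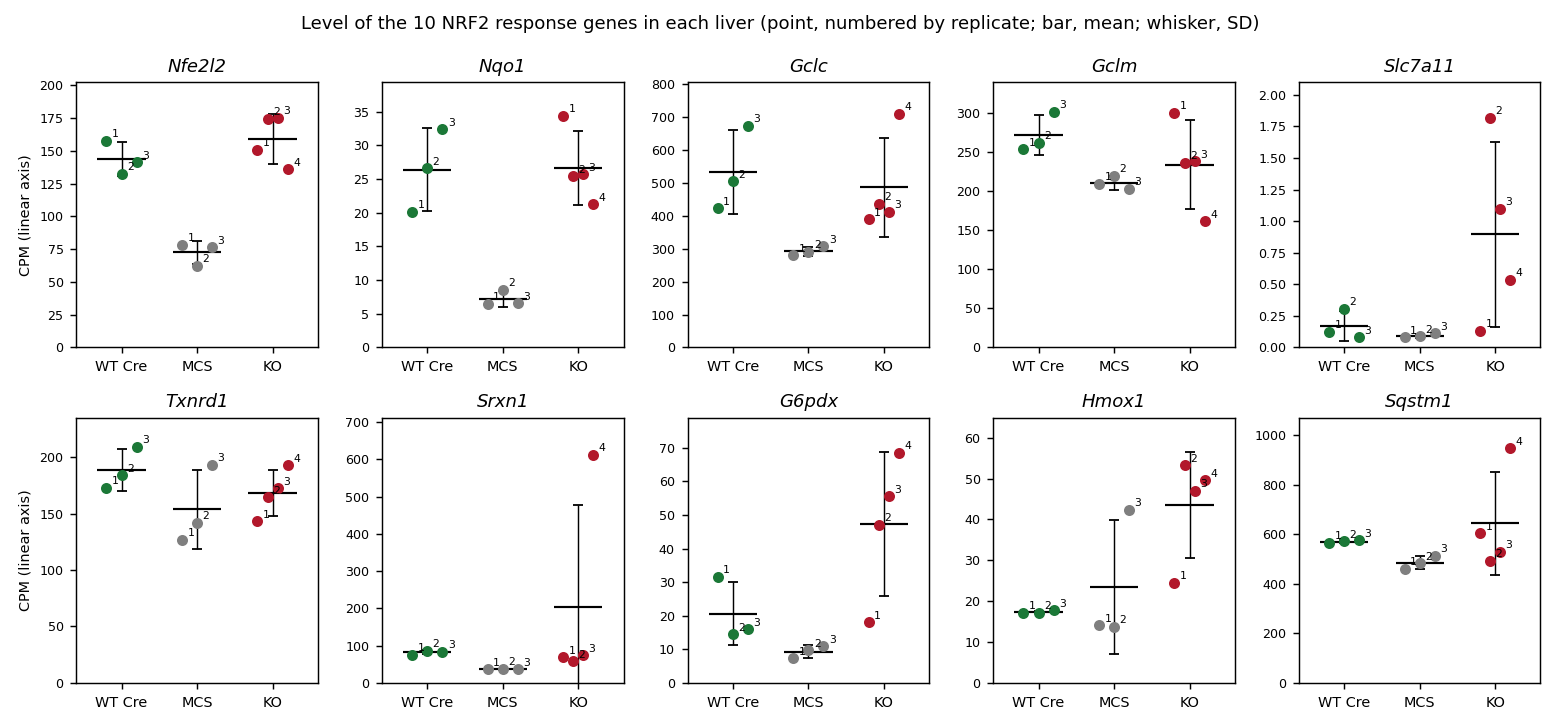
Level of each member in CPM (linear axis from 0) in 3 WT Cre, 3 MCS and 4 KO livers; points carry the replicate number, bars are means and whiskers SD (the lower whisker of Srxn1 in KO would pass below 0 and is cut there). MCS livers lie below all WT Cre livers for 7 genes, and KO 4 stands far above the other KO livers for Srxn1 at 613 CPM.

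Nfe2l2 (ENSMUSG00000015839.6, chromosome 2 at 75675513 to 75704641, minus strand, mm10) encodes NRF2 itself. It was at 157.9, 132.7 and 141.2 CPM in WT Cre 1 to 3, at 78.4, 62.4 and 76.5 CPM in MCS 1 to 3, and at 150.7, 174.4, 175.0 and 135.9 CPM in KO 1 to 4. The MCS livers stood apart from all others, and KO overlapped WT Cre. The mean was 143.9 ± 12.8 CPM (SD, n = 3) in WT Cre, 72.5 ± 8.75 CPM (SD, n = 3) in MCS and 159 ± 19.1 CPM (SD, n = 4) in KO. WT Cre exceeded MCS by a log2 fold change of 0.99 (SE 0.139, adjusted p = 0.00473 by edgeR). KO exceeded MCS by 1.13 (SE 0.132, adjusted p = 8.97e-05 by edgeR), and the difference from WT Cre was 0.14 (SE 0.128, adjusted p = 0.44 by edgeR). Against the pooled controls the log2 fold change was 0.56 (SE 0.251, adjusted p = 0.108 by edgeR). Without WT Cre 1 it was 0.69 and passed (adjusted p = 0.0411).

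Nqo1 (ENSMUSG00000003849.8, chromosome 8 at 107388225 to 107403206, minus strand) encodes a quinone reductase that is a standard readout of NRF2 activity. WT Cre 1 to 3 held 20.1, 26.6 and 32.4 CPM, MCS 1 to 3 held 6.47, 8.57 and 6.54 CPM, and KO 1 to 4 held 34.3, 25.4, 25.7 and 21.2 CPM. KO and WT Cre livers covered much the same range, and the 3 MCS livers lay below both. WT Cre exceeded MCS by a log2 fold change of 1.87 (SE 0.211, adjusted p = 0.00117 by edgeR), and KO exceeded MCS by 1.89 (SE 0.203, adjusted p = 5.45e-05 by edgeR). The log2 fold change of KO against WT Cre was 0.015 (SE 0.187, adjusted p = 0.965 by edgeR). For Nfe2l2 and Nqo1 the size of the KO difference thus depended on the kind of control, and the test of WT Cre against MCS is the test of that dependence.

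**Figure D2:**
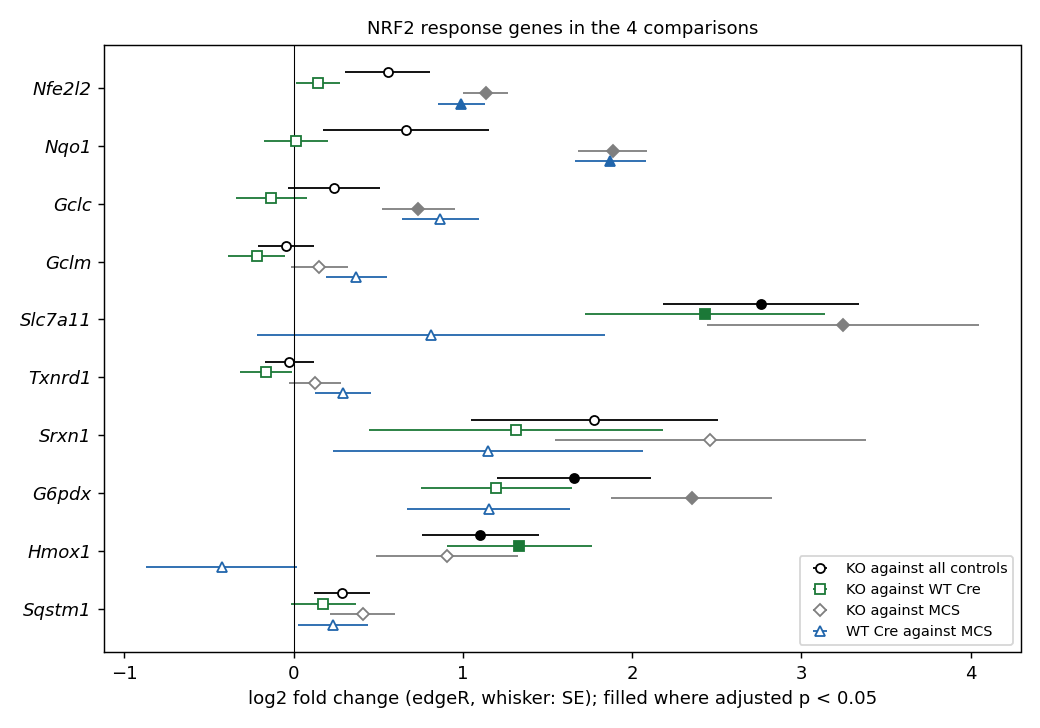
Log2 fold change of each member with its SE (whiskers) in the 4 comparisons, filled where the edgeR adjusted p was under 0.05. Nfe2l2 and Nqo1 differ from 0 against MCS but lie near 0 for KO against WT Cre (0.14 and 0.015).

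Glutathione is made by glutamate-cysteine ligase, of which Gclc encodes the catalytic and Gclm the modifier subunit. Gclc (ENSMUSG00000032350.9, chromosome 9 at 77754535 to 77794485) was at 422.5, 505.0 and 672.8 CPM in WT Cre 1 to 3, at 279.9, 290.3 and 307.1 CPM in MCS 1 to 3, and at 389.6, 436.6, 411.8 and 710.6 CPM in KO 1 to 4. Every MCS liver was below every other liver, and KO 4 was the highest of all. KO exceeded MCS by a log2 fold change of 0.74 (SE 0.215, adjusted p = 0.021 by edgeR), which did not pass without MCS 1 (0.70, adjusted p = 0.0743) or MCS 2 (0.73, adjusted p = 0.0686). WT Cre against MCS gave 0.87 (SE 0.228, adjusted p = 0.116 by edgeR), and without KO 4, which feeds the shared dispersion, this passed at 0.88 (adjusted p = 0.0167). Against the pooled controls the value was 0.24 (SE 0.27, adjusted p = 0.534 by edgeR), or -0.0056 without KO 4.

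Gclm (ENSMUSG00000028124.15, chromosome 3 at 122245557 to 122270732) was at 254 to 302 CPM in WT Cre, 203 to 220 CPM in MCS and 161 to 301 CPM in KO. KO spanned both controls, with KO 1 the highest and KO 4 the lowest of its group, the reverse of Gclc. The log2 fold change against the pooled controls was -0.045 (SE 0.164, adjusted p = 0.86 by edgeR), and its sign reversed to 0.11 when scaled by library size only. Exons of Gclm overlap those of Gm17494 and Gm6061, so its counts are uncertain.

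Slc7a11 (ENSMUSG00000027737.10, chromosome 3 at 49892526 to 50443614) encodes the cystine carrier that supplies cysteine for glutathione. It was barely detected, with 3, 7 and 2 counts in WT Cre 1 to 3 and 2 counts in each MCS liver. KO 1 also had 2 counts, while KO 2, 3 and 4 had 46, 26 and 14. KO 2, 3 and 4 were thus above all controls and KO 1 was at the control level. The KO total of 88 counts against 18 in the controls gave a ratio of 7.4 per TMM-adjusted library size, with an exact 95% interval of 4.42 to 13.1 that covers counting error only. The fitted log2 fold change was 2.76 (SE 0.579, adjusted p = 0.00255 by edgeR). It was 2.43 against WT Cre (SE 0.71, adjusted p = 0.0238 by edgeR) and 3.24 against MCS (SE 0.804, adjusted p = 0.00945 by edgeR). The call against WT Cre was lost without WT Cre 1 (2.26, adjusted p = 0.0886) or 3 (2.08, adjusted p = 0.0943) and without KO 2 (1.84, adjusted p = 0.0653) or 3 (2.33, adjusted p = 0.0516). With voom neither the call against WT Cre (adjusted p = 0.0784) nor that against MCS (adjusted p = 0.0507) held. SLC3A2 is the partner chain of this carrier, and Slc3a2 rose from 43.2 ± 1.57 (SD, n = 6) to 72.3 ± 20.3 CPM (SD, n = 4), a log2 fold change of 0.74 (SE 0.151, adjusted p = 0.00203 by edgeR). KO 1, at 44.18 CPM, lay within the controls for Slc3a2 (41.25 to 45.21 CPM).

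Txnrd1 and Srxn1 keep protein thiols reduced. Txnrd1 (ENSMUSG00000020250.10, chromosome 10 at 82833951 to 82897712), the cytosolic thioredoxin reductase, was at 172.7 to 209.2 CPM in WT Cre, 127 to 193.6 CPM in MCS and 143.4 to 192.9 CPM in KO. The 3 groups overlapped. Its log2 fold change against the pooled controls was -0.025 (SE 0.144, adjusted p = 0.911 by edgeR), and 0.15 when scaled by library size only.

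Srxn1 (ENSMUSG00000032802.8, chromosome 2 at 152105516 to 152111376) encodes sulfiredoxin, which restores overoxidised peroxiredoxins. WT Cre 1 to 3 held 75.8, 86.8 and 83.2 CPM, MCS 1 to 3 held 36.1, 38.5 and 36.2 CPM, and KO 1 to 4 held 69.1, 57.9, 74 and 613 CPM. KO 4 stood far above every other liver, while KO 1 to 3 lay between MCS and WT Cre. The log2 fold change against the pooled controls was 1.78 (SE 0.731, adjusted p = 0.0908 by edgeR). With all livers it was 2.46 against MCS (SE 0.919, adjusted p = 0.0773 by edgeR) and 1.31 against WT Cre (SE 0.871, adjusted p = 0.307 by edgeR). WT Cre against MCS gave 1.15 (SE 0.915, adjusted p = 0.757 by edgeR), and none of these was called. Without KO 4 the KO livers exceeded MCS by 0.87 (adjusted p = 0.000194) and differed from WT Cre by -0.30 (adjusted p = 0.0649), and WT Cre exceeded MCS by 1.16 (adjusted p = 0.000483). KO 4 was also the highest liver for Gclc, G6pdx and Sqstm1. The same liver had the highest summed level of 8 stellate cell markers (718.5 CPM, against 449.1 to 494.2 CPM in KO 1 to 3) and of 12 macrophage markers (1440 CPM), and the part of these in its values was not tested.

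G6pdx (ENSMUSG00000031400.10, chromosome X at 74409483 to 74429194) encodes glucose-6-phosphate dehydrogenase, the entry enzyme of the pentose phosphate pathway and a source of NADPH. It was at 31.5, 14.4 and 16 CPM in WT Cre 1 to 3, at 7.29, 9.73 and 10.9 CPM in MCS 1 to 3, and at 18, 47.1, 55.5 and 68.5 CPM in KO 1 to 4. KO 2 to 4 were above all controls, and KO 1 was below WT Cre 1. G6pdx rose by a log2 fold change of 1.66 against the pooled controls (SE 0.455, adjusted p = 0.019 by edgeR). The call was lost without KO 4 (1.42, adjusted p = 0.0648). KO exceeded MCS by 2.35 (SE 0.475, adjusted p = 0.0059 by edgeR). Against WT Cre the value was 1.2 (SE 0.446, adjusted p = 0.0768 by edgeR), and it passed without WT Cre 1 (1.64, adjusted p = 0.0406) or KO 1 (1.47, adjusted p = 0.00666), and with DESeq2 (1.22, adjusted p = 0.00966). Exons of Ikbkg overlap those of G6pdx on the other strand.

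Hmox1 (ENSMUSG00000005413.8, chromosome 8 at 75093621 to 75100589) encodes the inducible heme oxygenase, which hepatocytes and macrophages can express. WT Cre 1 to 3 held 17.1, 17.1 and 17.7 CPM, MCS 1 to 3 held 14.1, 13.8 and 42.4 CPM, and KO 1 to 4 held 24.6, 53.2, 46.9 and 49.6 CPM. KO 2 to 4 were above all controls, but MCS 3 was above KO 1. Hmox1 rose by 1.1 log2 units against the pooled controls (SE 0.345, adjusted p = 0.031 by edgeR) and by 1.33 against WT Cre (SE 0.428, adjusted p = 0.0461 by edgeR). Against MCS the log2 fold change was 0.91 (SE 0.422, adjusted p = 0.136 by edgeR), and without MCS 3 it was 1.65 and passed (adjusted p = 0.00183). The call against the pooled controls was lost on leaving out any of WT Cre 1, 2 or 3, MCS 1 or 2, or KO 2, 3 or 4 (1 to 1.08, adjusted p = 0.0546 to 0.0856). It was also lost with no filter on low counts (adjusted p = 0.067). Leaving out any of WT Cre 1, 2 or 3, or KO 2, 3 or 4, also ended the call against WT Cre (1.22 to 1.35, adjusted p = 0.0833 to 0.117), as did no filter (adjusted p = 0.109).

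All 12 macrophage and Kupffer cell markers rose in KO, and none was at 0 in any liver. Their summed level was 284.9 to 350.4 CPM in WT Cre 1 to 3, 313.3, 287.7 and 542 CPM in MCS 1 to 3, and 664.4, 1044, 1089 and 1440 CPM in KO 1 to 4. MCS 3, the control with the highest Hmox1, also had the highest macrophage sum among the controls, and KO 1 was the lowest KO liver for both. Other livers did not follow this order. KO 1 had a higher sum than MCS 3 but less Hmox1 (24.6 against 42.4 CPM). KO 4 had the highest sum but less Hmox1 than KO 2 (49.6 against 53.2 CPM). The part of macrophage RNA in the Hmox1 values was not tested.

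**Figure D3:**
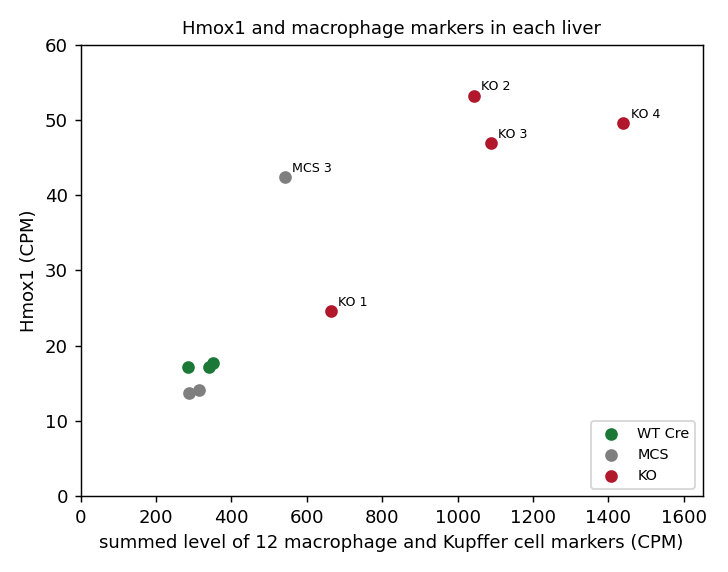
Hmox1 level (CPM) against the summed level of 12 macrophage and Kupffer cell markers (CPM) in each of 10 livers, both on linear axes; points are livers, coloured by group. MCS 3 (542 CPM of markers, 42.4 CPM of Hmox1) stands above the other 5 controls on both axes.

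Sqstm1 (ENSMUSG00000015837.15, chromosome 11 at 50199366 to 50210827) encodes p62, an autophagy receptor that binds KEAP1. It was at 564 to 574.4 CPM in WT Cre, 460.1 to 512.9 CPM in MCS and 602.6, 493.6, 529.8 and 946.8 CPM in KO 1 to 4. KO 4 was the highest liver, and KO 2 and 3 lay below all WT Cre livers. The log2 fold change against the pooled controls was 0.29 (SE 0.168, adjusted p = 0.205 by edgeR). Exons of Sqstm1 overlap those of Mrnip on the other strand.

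Levels between genes were compared as CPM per kilobase of exon in the 6 controls. Sqstm1 was highest at 157 ± 14.7 CPM per kb (SD, n = 6), followed by Gclc at 110 ± 41.1, Gclm at 38.4 ± 6.02, Nfe2l2 at 28.5 ± 10.6, Txnrd1 at 24.2 ± 4.43 and Srxn1 at 21.1 ± 8.83 CPM per kb. Hmox1 (11.6 ± 6.23 CPM per kb), Nqo1 (10.8 ± 7.22 CPM per kb), G6pdx (4.86 ± 2.82 CPM per kb) and Slc7a11 (0.0095 ± 0.0062 CPM per kb) followed. Ranges of neighbours in this order overlapped, except between Gclc and Gclm (lowest 74.3 against highest 48 CPM per kb) and between G6pdx and Slc7a11 (2.37 against 0.0218 CPM per kb). In KO the level of G6pdx was 15.3 ± 6.96 CPM per kb (SD, n = 4), and that of Slc7a11 was 0.0643 ± 0.0526 CPM per kb.

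The other genes of the pathway were taken from 10 lists with 109 genes, all tested. Of these, 27 (24.8%) rose and 29 (26.6%) fell in KO against the pooled controls, where 19.7% and 16.6% of all genes did, and 53 were not called. For each list below, the shares to set beside its counts against the pooled controls are again 19.7% and 16.6% of all genes. The median log2 fold change of the 109 genes was -0.12. Chac1 and Sesn2 stand in 2 lists each. WT Cre exceeded MCS in 8 of 109 genes (7.34%) and fell below MCS in 2 (1.83%), where 0.441% of all genes were called higher and 0.486% lower. All 3 WT Cre livers were above all 3 MCS livers for 31 of 109 genes and below them for 16, where 11% and 11.2% of all genes were.

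**Figure D4:**
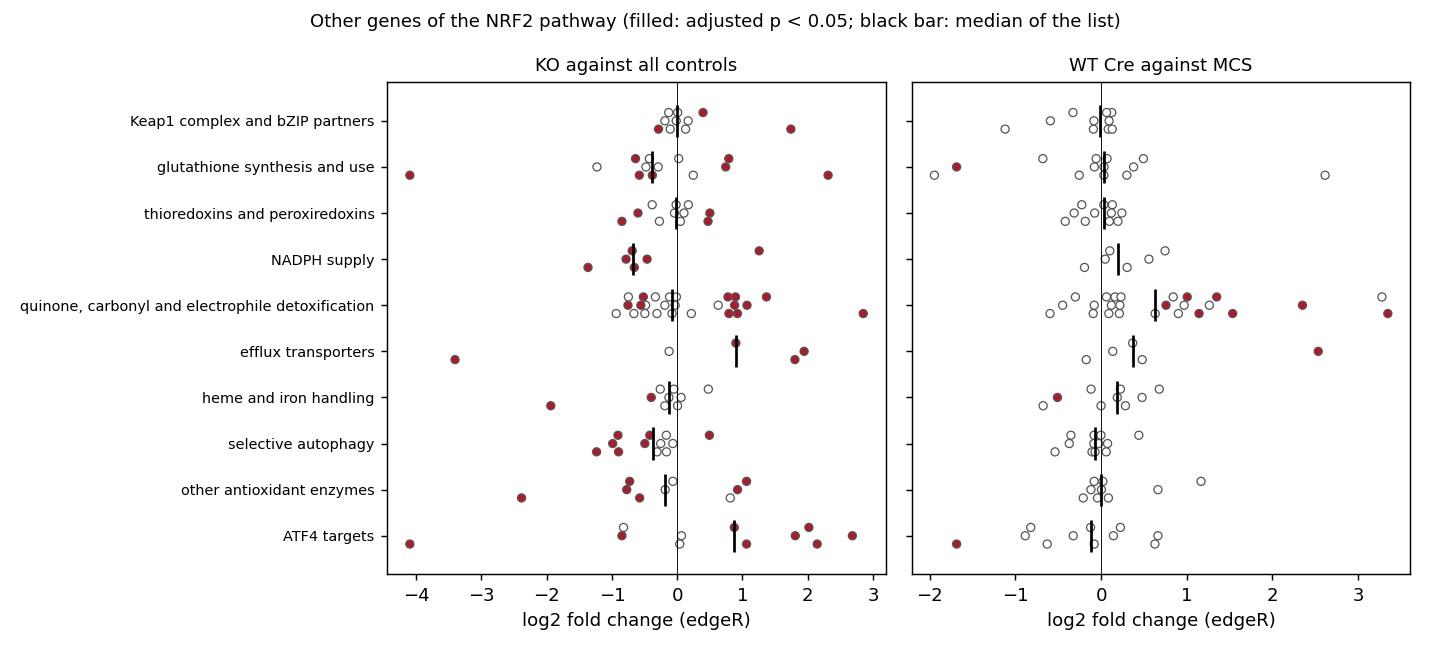
Log2 fold change (edgeR) of each of the 109 other pathway genes by list (rows), for KO against all controls on the left and WT Cre against MCS on the right; filled points had an adjusted p under 0.05 and black bars are list medians. On the left 5 of 6 NADPH genes lie filled below 0, and on the right the detoxification list has a median of 0.63 with 7 filled points.

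Among 10 genes of the KEAP1 complex and the bZIP partners of NRF2, 2 rose and 1 fell (median log2 fold change of -0.0033). Keap1, the adaptor that marks NRF2 for degradation, rose from 46.6 ± 3.07 (SD, n = 6) to 61.3 ± 6.56 CPM (SD, n = 4), by 0.40 log2 units (SE 0.0922, adjusted p = 0.0047 by edgeR), and all 4 KO livers were above all controls. Maff, a small MAF protein, rose from 4.04 ± 3.35 to 13.3 ± 6.76 CPM (log2 fold change 1.74, SE 0.528, adjusted p = 0.0282 by edgeR). Nfe2l1, which encodes the related factor NRF1, fell by 0.29 log2 units (SE 0.0975, adjusted p = 0.035 by edgeR). Bach1, which represses Hmox1, had a log2 fold change of -0.11 (adjusted p = 0.782 by edgeR; 0.10 when scaled by library size only), and Mafg one of -0.19 (adjusted p = 0.252 by edgeR). The call of Maff was lost without WT Cre 1 or 3, MCS 1 or 2, or KO 3 or 4 (1.36 to 1.77, adjusted p = 0.0514 to 0.0938), and with no filter on low counts (adjusted p = 0.0601). That of Nfe2l1 was lost without any of WT Cre 1 to 3 or KO 2 to 4 (-0.29 to -0.25, adjusted p = 0.0532 to 0.126), by library size only (-0.11, adjusted p = 0.435), with RLE scaling (-0.26, adjusted p = 0.0567), with no filter (adjusted p = 0.0764) and on the FPKM values (-0.13 with either pseudocount, adjusted p = 0.285 and 0.28). Keap1 overlaps another annotated gene, as does Mafg, so these counts are uncertain.

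In glutathione synthesis and use, 3 of 13 genes rose and 4 fell (median log2 fold change of -0.38). Gpx3, a secreted glutathione peroxidase, rose from 4.56 ± 1.17 (SD, n = 6) to 7.86 ± 1.17 CPM (SD, n = 4; log2 fold change 0.79, SE 0.19, adjusted p = 0.00565 by edgeR). Chac1, which degrades glutathione, fell from 5.59 ± 3.68 to 0.321 ± 0.0608 CPM (log2 fold change -4.09, SE 0.613, adjusted p = 0.000499 by edgeR). Chac2 has the same activity and fell from 25.1 ± 1.97 to 16.2 ± 5.75 CPM (log2 fold change -0.64, SE 0.198, adjusted p = 0.0239 by edgeR), a call that was lost without KO 3 (-0.64, adjusted p = 0.058), by library size only (-0.47, adjusted p = 0.0675) and on the FPKM values (-0.44 and -0.47, adjusted p = 0.112 and 0.114). Gsr, glutathione reductase, had a log2 fold change of 0.024 (adjusted p = 0.882 by edgeR), and Gpx4, which reduces lipid peroxides, one of 0.25 (adjusted p = 0.306 by edgeR).

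Of 11 thioredoxins and peroxiredoxins, 2 rose and 2 fell (median log2 fold change of -0.016). Prdx1 rose from 1033 ± 135 to 1462 ± 171 CPM (log2 fold change 0.50, SE 0.127, adjusted p = 0.00792 by edgeR) and the mitochondrial Prdx3 by 0.47 log2 units (adjusted p = 0.00574 by edgeR). Prdx4, of the endoplasmic reticulum, fell by 0.85 log2 units (adjusted p = 0.000166 by edgeR), and Txnrd2, the mitochondrial thioredoxin reductase, fell by 0.60 (adjusted p = 0.00106 by edgeR). On the FPKM values Txnrd2 did not pass (-0.30 and -0.32, adjusted p = 0.0622 and 0.0612 by limma), and its counts are uncertain. Txn1, the thioredoxin that Txnrd1 reduces, had a log2 fold change of -0.042 (adjusted p = 0.785 by edgeR; 0.13 when scaled by library size only).

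All 6 genes of NADPH supply were called against the pooled controls, 1 higher and 5 lower (median log2 fold change of -0.67). Against WT Cre 1 was higher and 5 lower, where 15.3% and 13.1% of all genes were. Against MCS 1 was higher and 3 lower, where 17.3% and 14.8% of all genes were. The 2 not called against MCS were Me1 and Tkt. Pgd, which follows G6pdx in the oxidative pentose phosphate pathway, rose from 82.6 ± 14.6 (SD, n = 6) to 197 ± 33.5 CPM (SD, n = 4), a log2 fold change of 1.26 (SE 0.146, adjusted p = 4.03e-05 by edgeR). Pgls, the lactonase between G6pdx and Pgd, fell from 35.2 ± 3.61 to 20.5 ± 5.83 CPM (log2 fold change -0.78, SE 0.151, adjusted p = 0.0014 by edgeR). Malic enzyme Me1 fell by 1.37 log2 units (SE 0.428, adjusted p = 0.0311 by edgeR), with a KO mean of 204 ± 148 CPM. The other 3, named to complete the list, were Tkt (-0.69, adjusted p = 0.00914 by edgeR), Taldo1 (-0.46, adjusted p = 0.00894 by edgeR) and Idh1 (-0.66, adjusted p = 0.00348 by edgeR), and all fell. The call of Me1 was lost without any of WT Cre 1 to 3 or KO 2 to 4 (-1.35 to -1.17, adjusted p = 0.052 to 0.0933), by library size only (-1.23, adjusted p = 0.0507) and with no filter (adjusted p = 0.0758). Pgls and Me1 overlap other annotated genes, so their counts are uncertain.

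Quinone, carbonyl and electrophile detoxification was the largest list. Against the pooled controls 8 of 25 genes were higher and 3 lower (median log2 fold change of -0.079). Against WT Cre 5 were higher and 7 lower (median -0.23), where 15.3% and 13.1% of all genes were. Against MCS 9 were higher and 3 lower (median 0.35), where 17.3% and 14.8% of all genes were. Gsta1, a glutathione S-transferase, was at 9.47 ± 6.69 CPM (SD, n = 3) in WT Cre, 0.934 ± 0.129 CPM (SD, n = 3) in MCS and 38.1 ± 13.7 CPM (SD, n = 4) in KO. It rose by 2.85 log2 units against the pooled controls (SE 0.825, adjusted p = 0.026 by edgeR), and lost the call without KO 1 (2.6, adjusted p = 0.0532) or KO 4 (2.81, adjusted p = 0.0573). Ptgr1 rose by 1.07 log2 units (adjusted p = 0.00549 by edgeR). Mgst1, a microsomal transferase, fell from 4146 ± 189 to 2459 ± 806 CPM (log2 fold change -0.75, adjusted p = 0.00419 by edgeR). Gstm6 fell by 0.56 (adjusted p = 0.0201 by edgeR), a call that was lost without KO 2 (-0.49, adjusted p = 0.0722), KO 3 (-0.53, adjusted p = 0.0612) or KO 4 (-0.45, adjusted p = 0.0648), by library size only (-0.38, adjusted p = 0.0542) and on the FPKM values (-0.39 with either pseudocount, adjusted p = 0.0546 and 0.0552). The Gsta and Gstm genes have close paralogs, and their counts are uncertain.

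The same list held 7 of the 8 pathway genes called higher in WT Cre than in MCS, and 15 of its 25 genes were higher in all 3 WT Cre than in all 3 MCS livers and 1 lower, against 11% and 11.2% of all genes. The 7 genes, named after their values were seen, were Gsta1, Gstm3, Cbr1, Gstm1, Ephx1, Mgst3 and Ugdh. Gstm3 was at 390 ± 119 CPM (SD, n = 3) in WT Cre, 76.5 ± 10.1 CPM (SD, n = 3) in MCS and 361 ± 87.7 CPM (SD, n = 4) in KO. WT Cre exceeded MCS in Gstm3 by 2.35 log2 units (SE 0.249, adjusted p = 0.00117 by edgeR), and KO differed from WT Cre by -0.11 (adjusted p = 0.744 by edgeR). Cbr1, a carbonyl reductase, was 1.53 higher in WT Cre (SE 0.211, adjusted p = 0.00455 by edgeR), with a KO mean of 130 ± 25.1 CPM between 166 ± 38.8 CPM in WT Cre and 57.2 ± 11.3 CPM in MCS. Gstm1, Ephx1 and Ugdh were called higher in WT Cre than in MCS, and lower in KO than in WT Cre by 1.46, 0.79 and 0.81 on the log2 scale (adjusted p in edgeR of 0.000315, 0.0124 and 0.00162). Leaving out 1 library ended the calls between controls for 5 of the 7, namely Gsta1, Gstm1, Ephx1, Mgst3 and Ugdh, and for both genes that were lower (Chac1 and Hmox2). The call of Gsta1 between controls was also lost with voom (3.12, adjusted p = 0.0599) and with no filter (3.37, adjusted p = 0.0847), and that of Ugdh with RLE scaling (0.76, adjusted p = 0.0526). The calls of Gstm3 and Cbr1 were kept in every such fit, with an adjusted p of at most 0.00997 and 0.0269.

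Of 5 efflux transporters, 3 rose and 1 fell (median log2 fold change of 0.90). Abcc4, which exports conjugates into the blood, was at 13.6 ± 3.23 CPM (SD, n = 3) in WT Cre, 2.36 ± 0.376 CPM (SD, n = 3) in MCS and 30.9 ± 8.2 CPM (SD, n = 4) in KO. It was the eighth pathway gene higher in WT Cre than in MCS (log2 fold change 2.53, adjusted p = 0.00117 by edgeR), and KO exceeded WT Cre by 1.18 (SE 0.23, adjusted p = 0.00302 by edgeR). Its rise against the pooled controls (1.95, adjusted p = 0.0388 by edgeR) lost the call without WT Cre 2, any of MCS 1 to 3 or any of KO 2 to 4 (1.75 to 2.02, adjusted p = 0.0525 to 0.0917), and with no filter (adjusted p = 0.0723). Abcc1 rose from 1.76 ± 0.584 to 6.06 ± 2.18 CPM (log2 fold change 1.8, adjusted p = 0.000386 by edgeR). Abcc3 fell from 314 ± 68.8 (SD, n = 6) to 29.7 ± 5.72 CPM (SD, n = 4), a log2 fold change of -3.4 (SE 0.195, adjusted p = 1.45e-07 by edgeR).

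In heme and iron handling, 0 of 9 genes rose and 2 fell by edgeR (median log2 fold change of -0.13). At an unadjusted edgeR p under 0.05 1 gene was higher and 3 were lower, and the share of all genes at that threshold was not taken. By DESeq2 or voom 0 were called higher. Alas1, which starts heme synthesis, fell from 517 ± 237 to 135 ± 31.9 CPM (log2 fold change -1.94, SE 0.306, adjusted p = 0.000643 by edgeR). Hmox2, the constitutive heme oxygenase, fell by 0.40 (adjusted p = 0.0347 by edgeR), a call that was lost without any of MCS 1 to 3 or KO 2 to 4 (-0.40 to -0.34, adjusted p = 0.0628 to 0.0756). It was lost as well with voom (adjusted p = 0.0507), when scaled by library size only (-0.21, adjusted p = 0.182) and on the FPKM values (-0.13 with either pseudocount, adjusted p = 0.327 and 0.323). Hmox2 was also lower in WT Cre than in MCS (-0.51, adjusted p = 0.027 by edgeR), but not when scaled by library size only (-0.37, adjusted p = 0.113) or with no filter on low counts (adjusted p = 0.0564). For Hmox2, KO differed from MCS by -0.63 (adjusted p = 0.000318 by edgeR) and from WT Cre by -0.12 (adjusted p = 0.349 by edgeR). Both genes overlap other annotated genes, so their counts are uncertain. The 7 red blood cell markers, a source of heme, summed to 124.8 to 324.2 CPM in the controls and 52.4 to 219.2 CPM in KO, and 2 of them were at 0 in some liver. Alas2 held 211.5 CPM of this sum in MCS 3 and 162.4 CPM in KO 1, where the globin gene Hbb-bs stood at 28.8 and 40.4 CPM. In these livers the sum was mostly Alas2 and was not a measure of globin level. None of the 7 markers was called in KO against the pooled controls.

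Of 12 genes of selective autophagy, the process p62 serves, 1 rose and 6 fell (median log2 fold change of -0.36). Gabarapl1, an ATG8 protein, fell from 347 ± 48.2 to 147 ± 30.5 CPM (log2 fold change -1.24, SE 0.154, adjusted p = 6.53e-05 by edgeR). Calcoco1, an autophagy receptor, fell by 0.99 log2 units (adjusted p = 0.0002 by edgeR), and Wdfy3, a large scaffold protein, rose by 0.49 (adjusted p = 0.0128 by edgeR). The call of Wdfy3 was lost on the FPKM values (0.50 and 0.62, adjusted p = 0.0634 and 0.0649 by limma). Exons of Gabarapl1 and Wdfy3 overlap those of other annotated genes, so their counts are uncertain.

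Of 9 other antioxidant genes, 2 rose and 4 fell (median log2 fold change of -0.18). Sesn2, a stress-induced sestrin, rose from 10.9 ± 3.08 to 22.8 ± 7.62 CPM (log2 fold change 1.06, adjusted p = 0.00542 by edgeR), and Sod3, the extracellular superoxide dismutase, rose by 0.93 log2 units (adjusted p = 2.12e-05 by edgeR). Msra, a methionine sulfoxide reductase, fell from 164 ± 7.06 to 31.5 ± 11.8 CPM (log2 fold change -2.38, adjusted p = 2.48e-06 by edgeR). Msrb1, another such reductase, fell by 0.77 (adjusted p = 0.00204 by edgeR), and catalase (Cat) fell from 3931 ± 204 to 2374 ± 561 CPM (log2 fold change -0.73, adjusted p = 0.00222 by edgeR). Sod1 had a log2 fold change of -0.18 (adjusted p = 0.333 by edgeR; 0.024 on the FPKM values), and passed without KO 1 (-0.36, adjusted p = 0.011).

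ATF4 is a stress factor that shares targets such as Slc7a11 with NRF2. Of 11 genes on its list, 6 rose and 2 fell (median log2 fold change of 0.88), where 19.7% and 16.6% of all genes did. The 3 not called, named after their values were seen, included Atf4 itself (0.065, adjusted p = 0.744 by edgeR). The others were Ddit3 (0.039, adjusted p = 0.846 by edgeR) and Trib3 (-0.82, adjusted p = 0.071 by edgeR). Atf3 rose from 1.23 ± 0.381 to 7.89 ± 2.37 CPM (log2 fold change 2.68, SE 0.262, adjusted p = 1.22e-05 by edgeR), and all 4 KO livers were above all controls. Asns, asparagine synthetase, rose from 0.504 ± 0.193 to 2.16 ± 1.61 CPM (log2 fold change 2.15, adjusted p = 0.00891 by edgeR). It was barely detected in the controls, with 7 to 15 counts each. KO 1 held 3 counts (0.196 CPM) and lay below all controls, while KO 2, 3 and 4 held 43, 66 and 104 counts. The call of Asns was lost with voom (1.75, adjusted p = 0.0629) and on log2(FPKM + 1) or log2(FPKM + 0.1) (0.61 and 1.40, adjusted p = 0.0612 and 0.0982 by limma). The ATF4 target Chac1 fell, as given above, and so did Shmt2, a mitochondrial enzyme of serine and folate metabolism (-0.85, adjusted p = 0.000391 by edgeR). Exons of Shmt2 overlap those of another annotated gene, so its counts are uncertain.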

How the data were processed

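Per the study's methods, the authors trimmed the reads, aligned them to mm10 with STAR and obtained gene counts from HOMER. The submitters' processing notes also name HTSeq and Cufflinks, and the strand setting of the counting was not given in the sources used here. The authors deposited a table of raw counts for 55421 genes and a table of FPKM values, which was used only as an alternative, on log2(FPKM + 1) and log2(FPKM + 0.1), with blank cells read as 0.

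Genes with at least 10 summed counts were kept. Tests used edgeR 4.0.16 in R 4.3.3 (TMM, robust quasi-likelihood F test, no covariates). KO was compared with 6 pooled controls in a fit of 2 groups, and the other comparisons came from a fit of 3 groups. SE was taken from the log2 fold change and the square root of its F statistic. Alternatives used DESeq2 1.42.0 and voom (limma 3.58.1), other scalings and filters, a replicate block and leaving out each library. Scripts were tested on simulated data. No library was a repeat of another in its group, since chi-square per degree of freedom between replicates was 10.3 to 96.7. Pairs across groups were not checked in this way. Depth is the total count per library. The count ratio of Slc7a11 used TMM-adjusted library sizes, and its interval covers counting error only. Coordinates and exon lengths came from GENCODE M21 (mm10), which held 54587 of the identifiers and all 10 members.

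The members and lists were chosen with earlier results of these data known. Named were all members, 8 fixed genes, and per list up to 2 called genes with the largest rise and the largest fall and a mean of at least 1 CPM. The cell type markers were also chosen with earlier results of these data known. Their lists were used whole, whatever the values, except for Tf, which was not found by symbol.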

Additional observations from a re-analysis of the deposited data

Results flagged for a closer look

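In 17 of 104 groups of 4 or 6 livers tested, the highest or lowest liver stood apart from the rest of its group by Dixon's criterion. Its rate of about 1 in 20 groups holds for independent values from a single normal population. The groups reuse the same livers, and those of 6 mix both kinds of control, so the 17 cannot be set against that rate. Among the members these were KO 4 for Srxn1 (613 CPM, next KO liver 74 CPM) and Gclc (710.6 CPM, next 436.6 CPM), MCS 3 for Hmox1 (42.36 CPM, next control 17.74 CPM), WT Cre 1 for G6pdx (31.51 CPM, next 16 CPM) and WT Cre 2 for Slc7a11 (0.3036 CPM, next 0.125 CPM).

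KO 1 stood apart from the other KO livers for 8 pathway genes. It was the highest for Prdx3 (219.2 CPM), Me1 (424 CPM), Pgls (29.19 CPM), Mgst1 (3654 CPM), Msra (49.06 CPM), Gpx4 (281.3 CPM) and Sod1 (1116 CPM), and the lowest for Abcc1 (2.802 CPM). For Me1, Pgls, Mgst1 and Msra, which fell in KO, KO 1 was thus the KO liver nearest to the controls. KO 1 also had the smallest library (14998426 counts) and the lowest macrophage sum among the KO livers (664.4 CPM), and the part of these in its values was not tested.

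Among the controls, MCS 3 was the highest for Maff (10.73 CPM, next 3.46 CPM) and the lowest for Txnrd2 (28.22 CPM). MCS 2 was the highest for Alas1 (986 CPM) and WT Cre 3 for Gsta1 (17.19 CPM, next 5.752 CPM).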

How the results depend on the processing

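Against the pooled controls 3 members were called, and 1 with the replicate number as a block, whereas leaving out 1 library gave 1 to 3. Against WT Cre 2 were called, 1 with voom, with no filter or with the replicate block, and 0 to 3 with 1 library left out. Against MCS 5 were called, and 4 to 6 with 1 library left out. Between WT Cre and MCS 2 were called, 1 with a log2 fold change over 1 as well, 4 with the replicate block, and 2 to 4 with 1 library left out. Of the 109 pathway genes 56 were called against the pooled controls, 19 with a log2 fold change over 1 as well, and 45 to 66 with 1 library left out. Between WT Cre and MCS 10 were called, 19 with DESeq2, and 3 (without MCS 2 or MCS 3) to 19 (without KO 1) with 1 library left out. Shares of all genes called were taken for the main fit only, so the counts under other fits cannot be set against all genes.

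Signs reversed only for results that were not called. Scaled by library size, which moved the median of all genes to 0.17, KO against the pooled controls gave 0.11 for Gclm, 0.15 for Txnrd1, 0.10 for Bach1 and 0.13 for Txn1. On log2(FPKM + 1) and log2(FPKM + 0.1) the values were 0.22 and 0.22 for Gclm, 0.18 and 0.19 for Txnrd1, 0.043 and 0.048 for Bach1, 0.15 and 0.15 for Txn1, and 0.024 and 0.024 for Sod1. The replicate block gave 0.094 for Gclm and -0.059 for Gsr, and against WT Cre -0.29 for Srxn1 and -0.074 for Sqstm1. With 1 library left out the ranges against the pooled controls were -0.0056 to 0.44 for Gclc, -0.19 to 0.098 for Gclm, -0.10 to 0.048 for Txnrd1, -0.32 to 0.051 for Bach1, -0.056 to 0.11 for Gsr and -0.11 to 0.0045 for Txn1. Against WT Cre they were -0.15 to 0.20 for Nqo1, -0.38 to 0.077 for Gclc, -0.30 to 1.63 for Srxn1 and -0.079 to 0.29 for Sqstm1, and between the controls -0.70 to 0.32 for Hmox1. The cause was not tested. Over 1664 comparisons of 92 gene results with an alternative, 1466 kept direction and call, 147 lost the call, 17 gained it and 34 reversed.

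Samples with the same replicate number did not deviate together (correlations of -0.024 to 0.081), so the number does not pair them. Its block leaves KO 4 alone in a block, which removes that library from the comparison. Among the members Slc7a11 had the fewest counts, 2 to 7 in each control.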
